A study of Mus musculus with 27 samples.

Results

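The genes described here are 9 interferon-linked genes of 2 families, *Parp9*, *Dtx3l*, *Parp10*, *Parp12* and *Parp14*, and *Slfn2*, *Slfn5*, *Slfn8* and *Slfn9*, chosen by name out of 22258 genes with a locus in the libraries that carry gene names. Their RNA was measured in *Setdb1* conditional knockout (cKO) iMEFs. These are fibroblasts from mouse embryos that were immortalized and that lose *Setdb1*, the gene of an H3K9 methyltransferase, after 4-hydroxytamoxifen (4OHT). All 27 libraries came from this cKO line, which the study had recloned from single cells, so that every control carries the same conditional allele; which recombinase responds to 4OHT is not given in the sources used here. In the total RNA experiment, rRNA was removed, and untreated cells, cells at day 5 after 4OHT (4OHT for the first 4 days) and long-term KO cells, kept in culture for more than 2 weeks after 4OHT, were compared with 3 libraries each. In the siRNA experiment, cells with control siRNA (siCtrl), siRNA to the DNA methyltransferase gene *Dnmt1* (siDnmt1), or either of them with 4OHT from day 0 were harvested at day 6, with 2 libraries each. In the inhibitor experiment, the groups of 2 libraries were untreated cells, cells with 150 nM of the histone deacetylase inhibitor trichostatin A (TSA) for 24 h, cells with 1 µM of the MEK inhibitor PD0325901 for the last 24 h, cells at day 6 after 4OHT, and cells with 4OHT and PD0325901.

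PARP proteins transfer ADP-ribose from NAD+ to proteins, and several of the members that add single ADP-ribose units are induced by interferon (IFN). Type I IFN signals through its receptor and receptor-bound kinases to transcription factors that bind the IFN-stimulated response element in the promoters of induced genes. PARP9 forms a complex with the ubiquitin ligase DTX3L, PARP12 carries RNA-binding zinc fingers, and PARP14 and PARP9 carry macrodomains, which bind ADP-ribose. Schlafen genes form a cluster on mouse chromosome 11, and many of them respond to IFN. The short member SLFN2 is known from the quiescence of T cells, and SLFN5, SLFN8 and SLFN9 are long members with a helicase-like region.

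The members lie in 4 places of the mm9 genome. *Parp14* (chr16:35832964-35871468), *Dtx3l* (chr16:35926601-35939113) and *Parp9* (chr16:35938556-35972707) are neighbours, and the loci of *Dtx3l* and *Parp9* overlap by 558 bp. *Slfn5* (chr11:82765604-82778352), *Slfn9* (chr11:82791946-82805332), *Slfn8* (chr11:82815660-82834312) and *Slfn2* (chr11:82878614-82884180) follow each other on chromosome 11. *Parp10* (chr15:76063425-76073870) and *Parp12* (chr6:39036411-39068348) stand apart. Whether fragments were assigned by strand is not given in the sources used here, so fragments in the overlap of *Dtx3l* and *Parp9* cannot be assigned to either gene with certainty.

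Promoter sequences are shown because the members were chosen for their link to IFN. RefSeq promoters (build GRCm38.p6, 250 bases before to 50 after the start) were matched for 6 of the 9 members, and none was matched for *Parp9*, *Parp10* and *Parp14*. The core of the IFN-stimulated response element, GAAANNGAAA on either strand, stood in the promoters of *Slfn5*, *Slfn8* and *Slfn9*, that is 3 of 6, and in 3.44% of the 32851 promoters of the table. With 1 mismatch allowed, 5 of the 6 promoters and 35.4% of all promoters held it. The gamma-activated site, TTCNNNGAA, stood in 0 of the 6 and in 8.30% of all. In the following stretches of 100 bases, 5′ to 3′, capitals mark the core. The stretches of *Slfn8* (chr11:83020811-83020910, minus strand) and *Slfn9* (chr11:82991831-82991930, minus strand) end at the base before the start, and that of *Slfn5* (chr11:82951902-82952001, plus strand) ends 101 bases before it.
Slfn5: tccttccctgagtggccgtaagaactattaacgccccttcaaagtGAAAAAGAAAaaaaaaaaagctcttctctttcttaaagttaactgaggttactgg
Slfn8: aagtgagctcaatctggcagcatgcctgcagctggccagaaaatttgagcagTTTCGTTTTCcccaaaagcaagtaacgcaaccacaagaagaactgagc
Slfn9: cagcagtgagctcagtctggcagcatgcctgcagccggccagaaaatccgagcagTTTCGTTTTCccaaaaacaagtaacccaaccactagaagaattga
In *Slfn8* and *Slfn9* the core has the same letters on the opposite strand and starts 48 and 45 bases before the start. A match is a description of the letters and not of binding.

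*Slfn8* and *Slfn9* are also nearly alike in their transcripts, which bears on how they could be measured. Their longest coding sequences in GENCODE vM1 both have 2733 bases and were identical at 92.7% of them. Of all stretches of 51 bases in the *Slfn8* coding sequence, 9.99% occurred without a mismatch in a *Slfn9* transcript. More occurred in a transcript of another Schlafen gene, *Slfn10-ps*, with 11.2% of those of *Slfn8* and 15.5% of those of *Slfn9*. Summing *Slfn8* and *Slfn9* does not remove that overlap. The first 90 coding bases of *Slfn8* and *Slfn9* show the pattern, with capitals at the 15 positions that differ.
Slfn8: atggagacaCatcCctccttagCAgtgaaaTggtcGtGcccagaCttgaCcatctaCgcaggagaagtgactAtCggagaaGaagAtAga
Slfn9: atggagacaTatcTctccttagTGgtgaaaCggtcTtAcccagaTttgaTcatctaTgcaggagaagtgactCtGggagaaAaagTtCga
The deposited files often gave both genes as 1 joined locus, in 7 of 9 total RNA, 5 of 8 siRNA and 2 of 10 inhibitor libraries. The genes were therefore tested as the sum, *Slfn8* + *Slfn9*. Where they stood apart, *Slfn9* made up most of the sum. In untreated cells of the inhibitor experiment, *Slfn8* had 1.08 and 0.880 FPKM and *Slfn9* 26.9 and 23.8 FPKM.

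Some libraries limit what the members can show. The library labelled 4OHT + siCtrl replicate 2 was unlike replicate 1. The IFN-induced *Usp18*, which encodes a protease that removes ISG15, had 4.10 FPKM there, against 136 in replicate 1 and 7.25 and 8.62 in siCtrl. It was not like siCtrl in every gene, since *Dusp6* had 30.2 FPKM, against 64.3 in replicate 1 and 70.7 and 65.8 in siCtrl. Why this library differs was not tested, and its *Usp18* does not show whether *Setdb1* was deleted. Each siRNA result below is therefore given with and without this library. The gene-level FPKM of *Setdb1* does not check the deletion, since it was 5.16 to 5.95 in untreated and 4.16 to 6.52 at 4OHT day 5 in total RNA, and it was listed at 0 in 3 libraries with 4OHT of the inhibitor experiment, where a failed estimate cannot be told apart. *Dnmt1* had 10.6 to 12.2 FPKM in the 4 siDnmt1 libraries and 73.4 to 80.5 in the other 4. For PD0325901 replicate 2, the file's own header carries a title of 4OHT with PD0325901 beside a description that fits the label, and its *Usp18* was 1.23 FPKM, against 133 and 123 in 4OHT + PD0325901. The depth implied by the files, in M fragments, was 36.9 to 41.7 in total RNA, 13.7 to 15.6 in siRNA and 10.9 to 12.7 in inhibitor libraries. Of 10 fibroblast markers, 7 to 9 had at least 1 FPKM in every library of an experiment. Of the 9 haematopoietic markers with a value, 7 or 8 stayed under 1 FPKM in every library of an experiment. Among these, the pan-leukocyte marker *Ptprc* stayed at or below 0.131 FPKM. *Cd68* went the other way, and where it had a value it had 2.73 to 3.90 FPKM in total RNA, 2.87 to 8.58 in siRNA and 3.21 to 66.9 in inhibitor libraries. FPKM values were compared within an experiment and not across the 3.

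At day 5 after 4OHT, 4 of the 6 members that could be tested in total RNA rose at least 2-fold, *Parp14* the most. Of all 9555 genes tested, 2.1% were called higher, that is with an adjusted p under 0.05 by limma and means that differ 2-fold or more. The median log2 fold change was 1.64 over the 6 members and 0.002 over all genes. *Parp14* had 0.819, 0.923 and 0.856 FPKM in untreated cells and 7.92, 8.22 and 8.28 FPKM at day 5. The groups did not overlap and their means differed 9.40-fold, a log2 fold change of 3.09 (SE 0.061, adjusted p = 4.29e-08 by limma). Log2 fold changes are throughout those of log2(FPKM + 0.1), which understates the change of low genes. In these bulk cultures, fewer cells with a transcript and less of it per cell cannot be told apart.

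The pair of *Parp9* and *Dtx3l*, which encode the partners of 1 complex, rose by nearly the same factor. *Parp9* had 5.96, 5.37 and 5.10 FPKM in untreated cells and 19.9, 17.1 and 15.9 FPKM at day 5 (log2 fold change 1.67, SE 0.11, adjusted p = 6.27e-05 by limma). *Dtx3l* had 2.07, 2.18 and 1.97 FPKM in untreated cells and 7.04, 6.99 and 6.87 FPKM at day 5 (1.70, SE 0.048, adjusted p = 2.17e-07 by limma). All libraries at day 5 were above all untreated libraries for both genes. *Parp12*, whose product binds RNA through zinc fingers, had 6.65, 6.71 and 6.26 FPKM and rose to 20.5, 19.9 and 20.1 FPKM (1.61, SE 0.052, adjusted p = 4.09e-07 by limma).

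The Schlafen members had smaller fold changes. *Slfn8* + *Slfn9* had 17.0, 17.9 and 16.8 FPKM in untreated cells and 28.7, 30.1 and 28.3 FPKM at day 5, a 1.68-fold difference of the means that passed the test but not the fold limit (log2 fold change 0.75, SE 0.037, adjusted p = 4.89e-06 by limma). *Slfn5* had 1.24, 1.14 and 1.13 FPKM and 2.04, 1.95 and 1.94 FPKM at day 5 (0.71, SE 0.084, adjusted p = 0.000500 by limma). Neither gene's groups overlapped. *Slfn2* was listed at 0 in 8 of the 9 total RNA libraries and had 0.0156 FPKM, the value of 1 fragment, in 4OHT day 5 replicate 1, so it was not tested. *Parp10*, a mono-ADP-ribosyltransferase, had a locus of its own in 2 of 9 libraries, 4OHT day 5 replicates 1 and 3, with 12.6 and 12.3 FPKM. In the other 7 it was joined with its neighbour *Plec*, a highly expressed cytoskeletal gene, and the sum of both did not pass the test at day 5 (log2 fold change 0.01, SE 0.091, adjusted p = 0.921 by limma). In long-term KO against untreated cells, the sum passed the test far below the fold limit (0.24, SE 0.091, adjusted p = 0.0482 by limma).

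**Figure D1:**
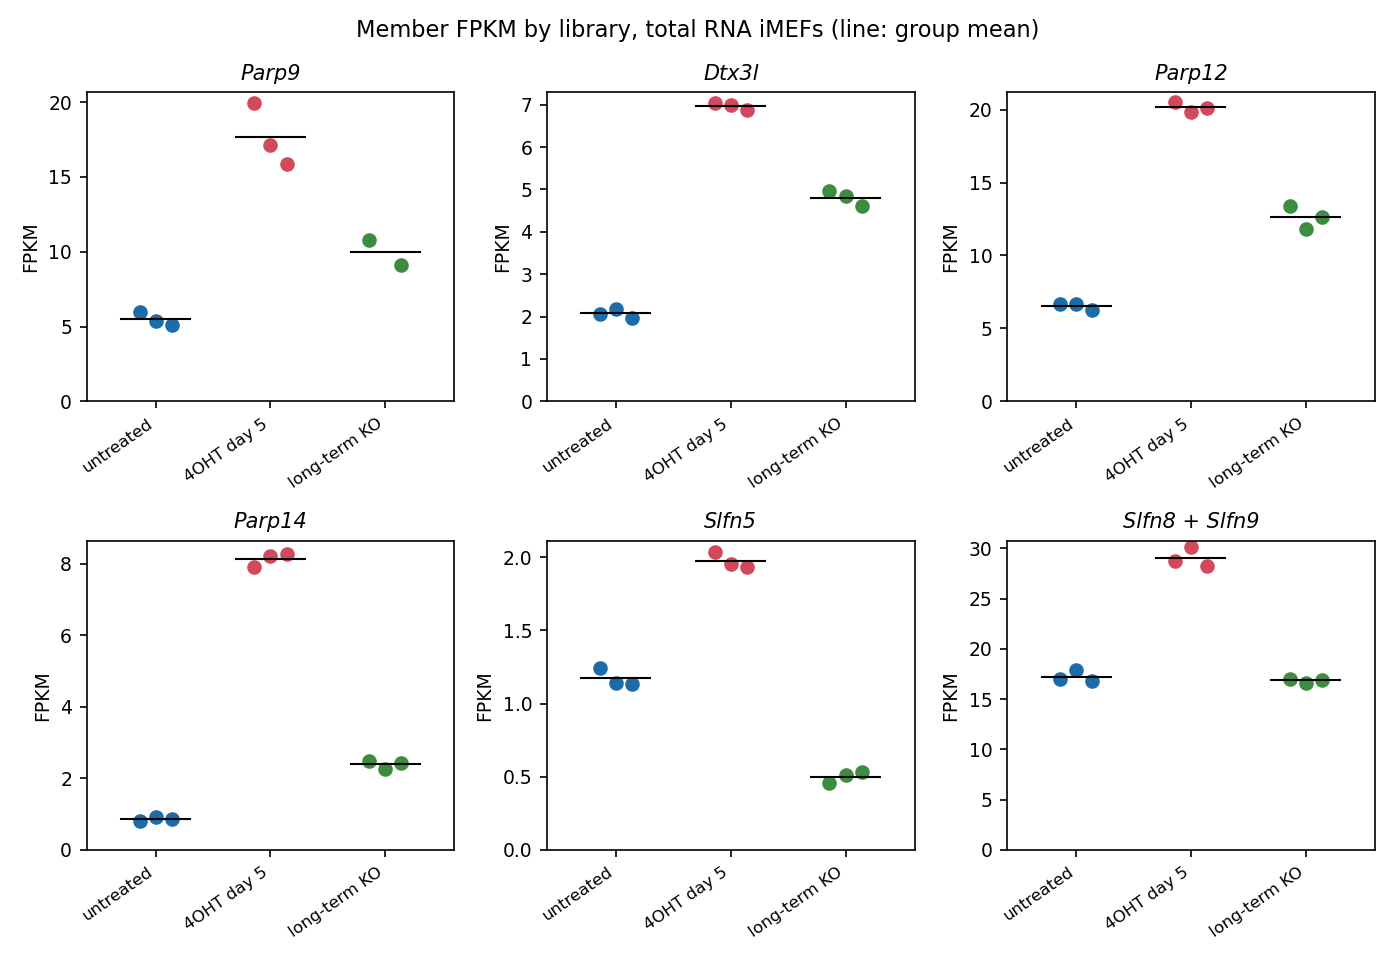
FPKM (vertical axes, linear, starting at 0) of 6 members in the 9 total RNA libraries by group, 1 point per library and a line at the group mean. *Parp14* rises from 0.819 to 0.923 FPKM in untreated cells to 7.92 to 8.28 at day 5, and *Slfn5* in long-term KO, at 0.459 to 0.530, lies below its untreated libraries.

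In long-term KO cells, the members had come down from day 5, to different levels relative to untreated cells. *Parp14* (2.49, 2.25 and 2.44 FPKM) and *Dtx3l* (4.96, 4.83 and 4.62 FPKM) were still above untreated cells, with log2 fold changes of 1.37 (SE 0.061, adjusted p = 6.93e-07 by limma) and 1.17 (SE 0.048, adjusted p = 4.43e-07 by limma). They were 2 members called higher, and 7.62% of all genes tested were. *Parp12*, at 13.4, 11.8 and 12.6 FPKM, passed the test below the fold limit (0.94, SE 0.052, adjusted p = 2.02e-06 by limma). *Parp9*, at 10.8 and 9.12 FPKM in replicates 2 and 3, did so too (0.85, SE 0.12, adjusted p = 0.000756 by limma). The fit dropped *Parp9* in replicate 1, where its locus is joined with *Kpna1* at 25.1 FPKM.

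*Slfn5* went the other way. Its 0.459, 0.514 and 0.530 FPKM in long-term KO were below all untreated libraries, 2.34-fold lower in the means (log2 fold change -1.08, SE 0.084, adjusted p = 1.24e-05 by limma), and it was the 1 member called lower, where 6.23% of all genes were. *Slfn8* + *Slfn9*, at 17.0, 16.6 and 16.9 FPKM, overlapped with untreated cells (-0.03, SE 0.037, adjusted p = 0.455 by limma). The calls of *Dtx3l*, *Parp14* and *Slfn5* in long-term KO were lost with a pseudocount of 1 FPKM, where the log2 fold changes were 0.92, 0.86 and -0.53, and that of *Dtx3l* also with quantile normalization (0.998).

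Set directly against day 5, all 6 members were lower in long-term KO by the adjusted p, and *Parp14* (log2 fold change -1.73, SE 0.061, adjusted p = 2.50e-07 by limma) and *Slfn5* (-1.79, SE 0.084, adjusted p = 9.51e-07 by limma) by at least 2-fold, where 5.95% of all genes were called lower. The other 4 lay between -0.53 for *Dtx3l* and -0.82 for *Parp9*. By the adjusted p alone, 6306 of all 9555 genes tested differed in either direction, so passing it sets no member apart. The 2 groups did not overlap for any of the 6 members, and how many of all genes had no overlap was not counted. The comparisons with untreated cells share the same 3 control libraries. The summed FPKM of the 10 fibroblast markers was 2386 to 2403 in untreated cells, 1623 to 1786 at day 5 and 1827 to 2923 in long-term KO, and the part of this shift in the members' values was not tested.

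In the inhibitor experiment, 4OHT at day 6 raised 6 of the 7 members tested, and 4.96% of all 11786 genes were called higher. The median log2 fold change was 2.49 over the 7 members. *Parp14* had 1.25 and 1.54 FPKM in untreated cells and 11.7 and 39.0 FPKM at day 6 (log2 fold change 3.85, SE 0.62, adjusted p = 0.00559 by limma). *Parp12* had 9.59 and 8.96 FPKM in untreated cells and 46.1 and 91.2 FPKM at day 6 (2.79, SE 0.31, adjusted p = 0.00143 by limma). Replicate 2 with 4OHT was the higher one for both genes, and neither replicate overlapped with untreated cells.

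*Parp9* (9.66 and 7.80 against 36.8 and 66.0 FPKM) and *Dtx3l* (2.89 and 2.80 against 12.6 and 27.6 FPKM) again rose together, with log2 fold changes of 2.49 (SE 0.32, adjusted p = 0.00250 by limma) and 2.67 (SE 0.51, adjusted p = 0.00978 by limma). *Parp10*, which had its own locus in all 10 inhibitor libraries, rose from 7.26 and 6.68 to 23.6 and 38.7 FPKM (2.10, SE 0.28, adjusted p = 0.00273 by limma). *Slfn5* rose from 0.757 and 0.700 to 1.52 and 2.58 FPKM (1.33, SE 0.35, adjusted p = 0.0305 by limma). *Slfn8* + *Slfn9*, with 27.9 and 24.7 FPKM in untreated cells and 32.6 and 73.7 FPKM at day 6, did not pass the test (0.90, SE 0.44, adjusted p = 0.178 by limma). The summed FPKM of the fibroblast markers was 3970 to 4213 in untreated cells and 2873 to 2987 at day 6, and its part was not tested. The call of *Slfn5* did not hold with a pseudocount of 1 FPKM (log2 fold change 0.80) or in a fit of the untreated and 4OHT day 6 libraries alone (adjusted p = 0.0637 by limma). The call of *Dtx3l* was lost without either untreated library or without 4OHT day 6 replicate 2 (adjusted p 0.0505 to 0.0624), and that of *Slfn5* without the same libraries (0.116 to 0.140).

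*Slfn2* was at 0 in the 6 inhibitor libraries without 4OHT, where 3 fragments would have given 0.145 to 0.159 FPKM. It had 0.0487 and 0.392 FPKM at 4OHT day 6, from 1 and 7 fragments, and 0.0974 and 0.431 FPKM in 4OHT + PD0325901, from 2 and 8 fragments. Counted against a floor of 3 fragments over the group, the ratio of *Slfn2* was 2.75 for 4OHT day 6 against untreated cells. It was 3.38 for 4OHT + PD0325901 against PD0325901. The floor stands for the counting error of the groups at 0. The counting error of the 8 and 10 fragments in the groups with 4OHT is not covered, so neither ratio is a lower bound. *Slfn2* stayed below the 1 FPKM needed for the test.

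**Figure D2:**
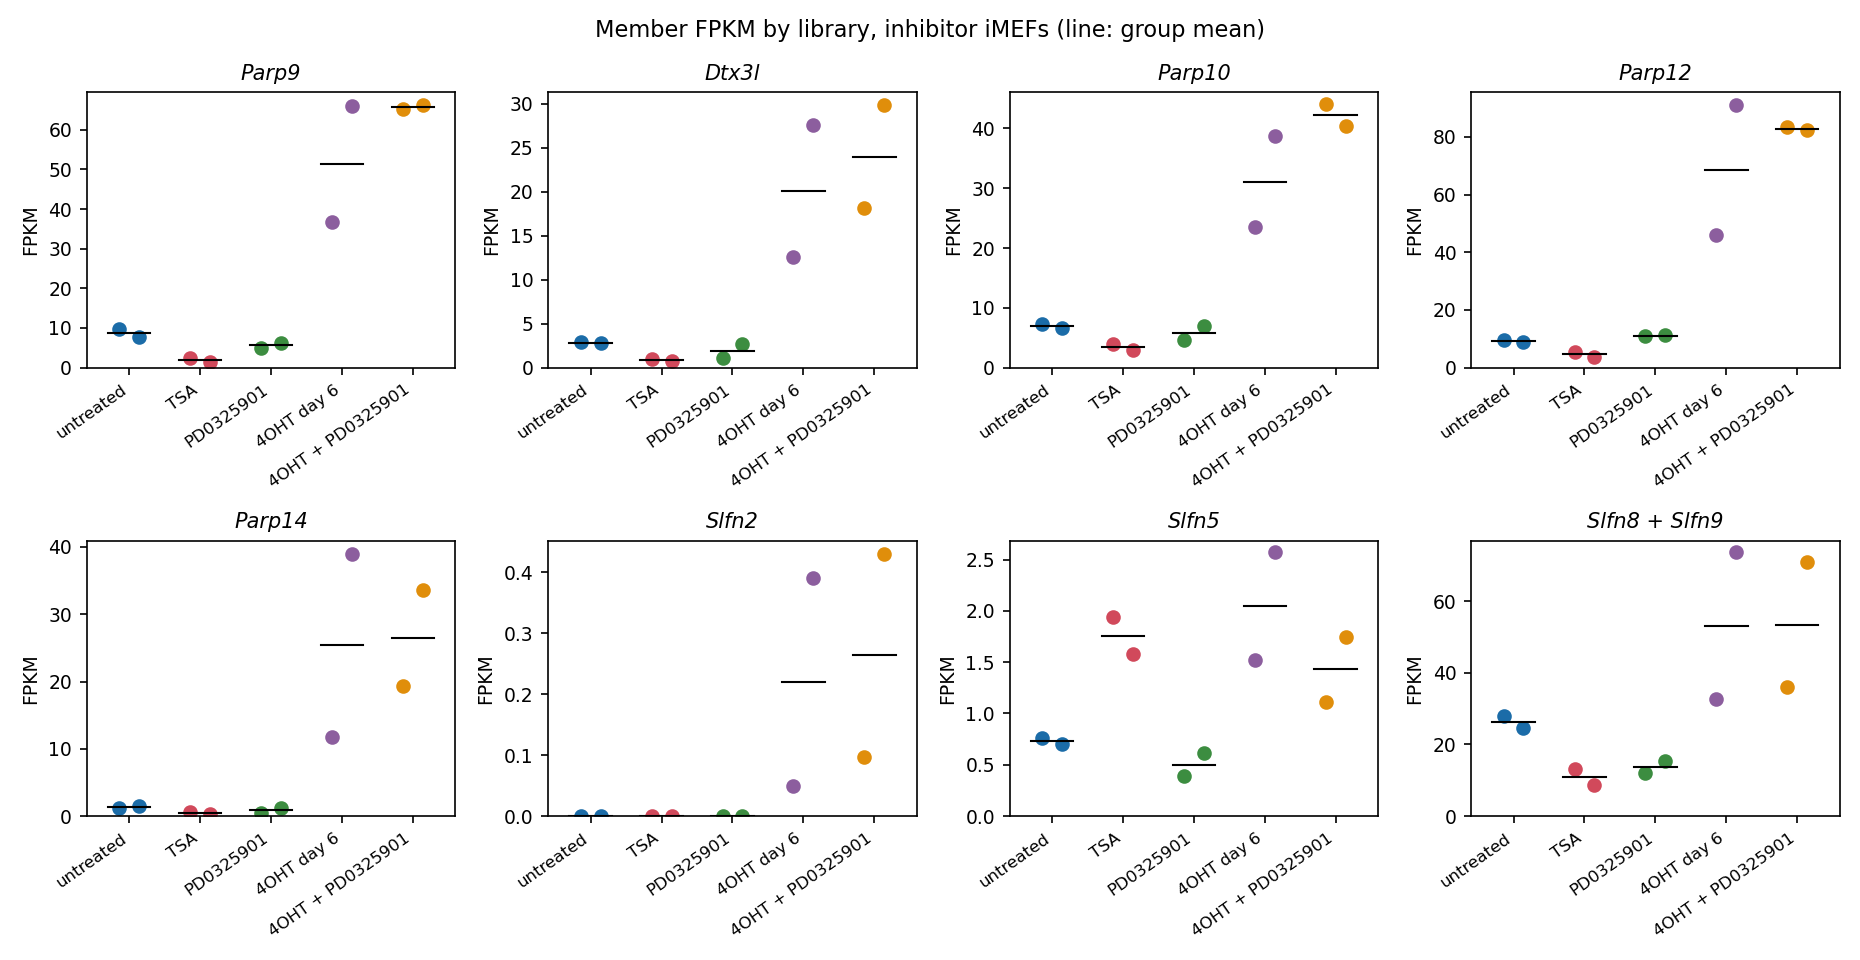
FPKM (vertical axes, linear, starting at 0, scaled per gene) of the 8 quantities in the 10 inhibitor libraries by group, 1 point per library and a line at the group mean. Both groups with 4OHT lie above untreated cells for all 8, and TSA lies below untreated cells for all but *Slfn2*, which is at 0 in both, and *Slfn5*, which lies above.

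With PD0325901 present, the members were again higher with 4OHT. Against PD0325901 alone, 6 of 7 members rose in 4OHT + PD0325901, where 3.16% of all genes were called higher. *Parp14* had 0.514 and 1.24 FPKM with PD0325901 and 19.3 and 33.6 FPKM with both (log2 fold change 4.82, SE 0.62, adjusted p = 0.00570 by limma). *Parp9* had 4.92 and 6.25 FPKM with PD0325901 and 65.2 and 66.3 FPKM with both (3.54, SE 0.32, adjusted p = 0.00142 by limma), although the deposited interval of *Parp9* in 4OHT + PD0325901 replicate 2 spans 0 to 15545 FPKM and tells nothing of its precision.

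The log2 fold changes of *Dtx3l*, *Parp10* and *Parp12* in this comparison were 3.70, 2.87 and 2.89 (adjusted p 0.00190 to 0.00713 by limma). *Slfn8* + *Slfn9* had 12.2 and 15.3 FPKM with PD0325901 and 36.0 and 70.9 FPKM with both (1.88, SE 0.44, adjusted p = 0.0416 by limma), a call that was lost without either PD0325901 library or without 4OHT + PD0325901 replicate 2 (adjusted p 0.120 to 0.156). *Slfn5* missed the threshold (1.34, SE 0.35, adjusted p = 0.0582 by limma). In a fit of these 2 groups alone, 3 members were called. The summed FPKM of the fibroblast markers was 5030 to 5574 with PD0325901 and 2947 to 3375 with both, and its part was not tested. The comparisons with untreated cells of this experiment share the same 2 control libraries.

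PD0325901 by itself moved no member past the test. Of the 7, 0 were called against untreated cells and 0 had an unadjusted p under 0.05 by limma, where 7.19% of all genes were called in either direction, and 6 of the 7 log2 fold changes were negative, from -0.94 for *Slfn8* + *Slfn9* to 0.26 for *Parp12*. The MEK pathway target *Dusp6* had 9.82 and 3.94 FPKM in these libraries and 44.5 and 46.6 FPKM in untreated cells. With 4OHT, adding PD0325901 again gave 0 called members and 0 with an unadjusted p under 0.05 (limma, 3.71% of all genes called), and the log2 fold changes lay between -0.47 for *Slfn5* and 0.48 for *Parp10*. The interaction of 4OHT and PD0325901, that is the difference between the 4OHT effects with and without the inhibitor, called 0 of 7 members and 0.602% of all genes (limma), and 1 member, *Parp9*, had an unadjusted p under 0.05 (difference 1.05 on the log2 scale, SE 0.45, adjusted p = 0.315). Misses of this size with 2 libraries a group do not show that the effects were alike.

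With all libraries in the fit, TSA lowered 4 members and raised 1, though of these calls only that of *Parp9* held whichever library was left out. With TSA, 12.9% of all genes were called lower and 19.1% higher, so these counts stand against a large background. The median log2 fold change was -1.28 over the 7 members and 0.09 over all genes. *Parp9* had 2.45 and 1.47 FPKM with TSA, against 9.66 and 7.80 in untreated cells, 4.46-fold lower in the means (log2 fold change -2.14, SE 0.32, adjusted p = 0.000929 by limma). *Dtx3l*, at 1.02 and 0.728 FPKM (-1.61, SE 0.51, adjusted p = 0.0282 by limma), *Parp12*, at 5.53 and 3.67 FPKM (-1.02, SE 0.31, adjusted p = 0.0223 by limma), and *Slfn8* + *Slfn9*, at 13.3 and 8.72 FPKM (-1.28, SE 0.44, adjusted p = 0.0384 by limma), fell too.

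*Parp14* had 0.585 and 0.298 FPKM with TSA, below both untreated libraries, and did not pass the test (-1.51, SE 0.62, adjusted p = 0.0726 by limma). *Parp10*, at 3.99 and 3.005 FPKM, passed the test just under the fold limit (-0.99, SE 0.28, adjusted p = 0.0176 by limma). *Slfn5* was the exception, with 1.94 and 1.58 FPKM against 0.757 and 0.700 in untreated cells (1.16, SE 0.35, adjusted p = 0.0234 by limma). In libraries where *Slfn8* and *Slfn9* had loci of their own, both fell with TSA, by 1.21 and 1.27 on the log2 scale (adjusted p = 0.0427 and 0.0272 by limma). This fit was added after the data were seen, and it drops 2 libraries of the other groups, where the loci are joined.

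The TSA values depended on few libraries and on the scaling. When each of the 4 libraries was left out in turn, the call of *Parp9* held each time (log2 fold change -2.49 to -1.78). The calls of *Dtx3l* (-1.83 to -1.39), *Slfn5* (1.02 to 1.30) and *Slfn8* + *Slfn9* (-1.58 to -0.98) were lost each time, with the sign kept. That of *Parp12* (-1.31 to -0.73) held in 1 of the 4 fits. Each of these fits leaves 1 library in a group. Quantile normalization brought *Slfn5* to 0.27 (adjusted p = 0.474) and *Parp14* to -3.19 (adjusted p = 0.00164). Other marker genes moved with TSA as well. The sum of the 9 haematopoietic markers with a value was 61.3 to 67.6 FPKM with TSA and 4.49 to 5.10 in untreated cells, with the lysosomal gene *Cd68* reaching 66.9 FPKM, and the sum of the 6 epithelial markers was 34.3 to 40.9 against 1.28 to 1.39 FPKM. Their part in the members' values was not tested.

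**Figure D3:**
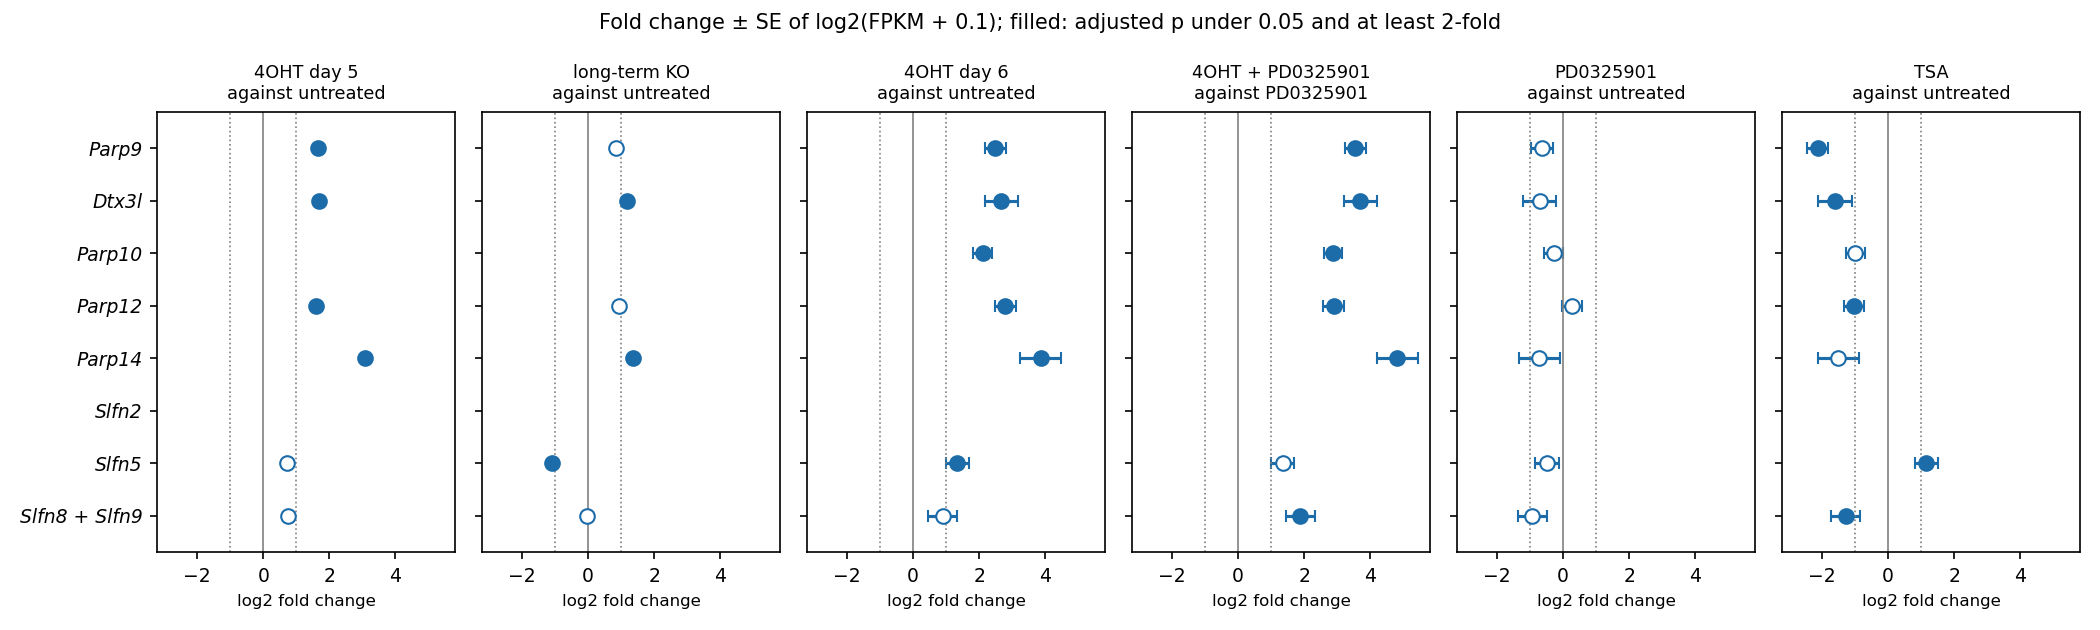
Log2 fold change of log2(FPKM + 0.1) with its SE (bars) for each member in 6 comparisons of the total RNA and inhibitor experiments, filled where called and open where not, with dotted lines at the 2-fold limits; a missing point is a member that was not tested. *Slfn5* is on the other side of 0 from *Parp14* both in long-term KO (-1.08 against 1.37) and with TSA (1.16 against -1.51, open).

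In the siRNA experiment, the number of members called depended on 1 library, 4OHT + siCtrl replicate 2. With siDnmt1 alone, *Parp12* had 43.3 and 40.4 FPKM against 20.04 and 18.5 in siCtrl, and *Parp14* had 10.6 and 10.2 against 4.77 and 4.38 FPKM. *Parp9* had 29.3 and 29.6 against 15.7 and 15.9 FPKM, and *Dtx3l* 10.7 and 9.70 against 4.90 and 4.71 FPKM. *Slfn8* + *Slfn9* had 46.5 and 44.9 against 27.2 and 23.4 FPKM. The siDnmt1 libraries lay above both siCtrl libraries for all tested members but *Slfn2*, and the ratios of means were between 1.81 for *Slfn8* + *Slfn9* and 2.27 for *Parp14*. How many of all genes had no overlap between these groups was not counted.

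With all 8 libraries in the fit, 0 of 8 members were called for siDnmt1 against siCtrl and 1 had an unadjusted p under 0.05 (limma, 4.71% of all genes called), with SEs of 0.57 to 0.85 for all members but *Parp10*. Without 4OHT + siCtrl replicate 2, an alternative added after the data were seen, 3 of 8 members were called higher, *Dtx3l* (log2 fold change 1.07, SE 0.26, adjusted p = 0.0428 by limma), *Parp12* (1.11, SE 0.18, adjusted p = 0.0153 by limma) and *Parp14* (1.17, SE 0.18, adjusted p = 0.0123 by limma), and 7.97% of all genes were called in either direction. The same 3 members were called when the siCtrl and siDnmt1 libraries alone were fitted. The sum of the 6 epithelial markers moved with siDnmt1, from 0.677 to 1.05 FPKM in siCtrl to 55.7 to 56.0 FPKM, and the summed FPKM of the 10 fibroblast markers was 4987 to 5089 in siCtrl and 4048 to 4222 with siDnmt1. Their part in the members' values was not tested.

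With 4OHT and siCtrl, the replicates disagreed. *Parp9* had 65.7 FPKM in replicate 1 and 15.1 in replicate 2, *Dtx3l* had 27.0 and 3.97, *Parp12* had 90.5 and 14.5, and *Parp14* had 40.6 and 5.35 FPKM. Replicate 2 lay below both siCtrl libraries for *Parp9*, *Dtx3l*, *Parp12* and *Slfn8* + *Slfn9*, and above both for *Parp14* and *Slfn5*. With both replicates, 1 of 8 members was called higher, and 2.67% of all genes were. That member was *Parp10* (log2 fold change 2.09, SE 0.27, adjusted p = 0.0135 by limma), and the fit had dropped its value in replicate 2, where its locus is joined with *Plec*, so the call rests on the 53.3 FPKM of replicate 1 against 12.6 and 12.2 in siCtrl. Without replicate 2, the log2 fold changes ran from 1.58 for *Slfn5* to 3.12 for *Parp14*. That of *Slfn2*, 2.41, comes from 11 fragments. Replicate 2 was set apart by its low *Usp18*, an IFN-induced gene, so leaving it out favours higher values of IFN-linked members. These values also rest on 1 library of 4OHT + siCtrl, so no test of them is given. The summed FPKM of the fibroblast markers was 2325 to 3659 in 4OHT + siCtrl and 4987 to 5089 in siCtrl, and its part was not tested.

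With 4OHT and siDnmt1 together, the members reached their highest FPKM of the experiment. *Parp12* had 194 and 131 FPKM, *Parp9* 131 and 88.5, *Parp10* 107 and 67.6, *Parp14* 58.6 and 40.8, and *Dtx3l* 58.3 and 33.0 FPKM. Replicate 1 was the higher one for all 8 quantities. *Slfn2*, which passed the filter on low values through this group alone, is left out of the counts against siDnmt1. Of the other 7, 1 was called higher with all libraries, *Parp10* (log2 fold change 1.90, SE 0.22, adjusted p = 0.0138 by limma), where 3.39% of all genes were. The median of all genes was 0.15 in this comparison and 0.0014 after median-ratio scaling. Without 4OHT + siCtrl replicate 2, 6 of these 7 were called, and 9.13% of all genes in either direction, with log2 fold changes from 1.39 for *Slfn8* + *Slfn9* to 2.22 for *Parp14*. *Slfn5*, with 8.32 and 2.41 FPKM against 1.25 and 0.915, missed the threshold there (1.97, SE 0.58, adjusted p = 0.0522 by limma). The summed FPKM of the 10 fibroblast markers was 2387 to 2428 in 4OHT + siDnmt1 and 4048 to 4222 in siDnmt1, and that of the haematopoietic markers was 8.89 to 9.01 and 5.02 to 5.36. Their part in the members' values was not tested.

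*Slfn2*, for which a difference was bound to appear, had 2.88 and 1.74 FPKM in 4OHT + siDnmt1, from 68 and 39 fragments, 0.432 and 0 FPKM in 4OHT + siCtrl, from 11 and 0 fragments, and 0 and 0.0413 FPKM in siDnmt1, from 0 and 1 fragment. Both siCtrl libraries were at 0, where 3 fragments would have given 0.125 and 0.127 FPKM. Scaled by depth, *Slfn2* was 113-fold higher in 4OHT + siDnmt1 than in siDnmt1, with an exact 95% counting interval of 19.8 to 4491.

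For the same reason, *Slfn2* is set apart in what follows. Against 4OHT + siCtrl, adding siDnmt1 gave 0 called members (limma, 1.41% of all genes called). *Parp9*, *Dtx3l*, *Parp12*, *Slfn5* and *Slfn8* + *Slfn9* had an unadjusted p under 0.05 by limma, as had 2179 of all 11104 genes tested. Without replicate 2 of 4OHT + siCtrl, the log2 fold changes ran from 0.27 for *Parp14* to 1.22 for *Slfn5*, and that of *Slfn2* was 2.14. The interaction of 4OHT and siDnmt1 called 0 members and 0.207% of all genes (limma), and no member but *Slfn2* had an unadjusted p under 0.05. Without replicate 2, the differences ran from -0.90 for *Parp14* to 0.39 for *Slfn5*, and that of *Slfn2* was 1.89. The values without replicate 2 rest on 1 library of 4OHT + siCtrl, so no test of them is given.

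**Figure D4:**
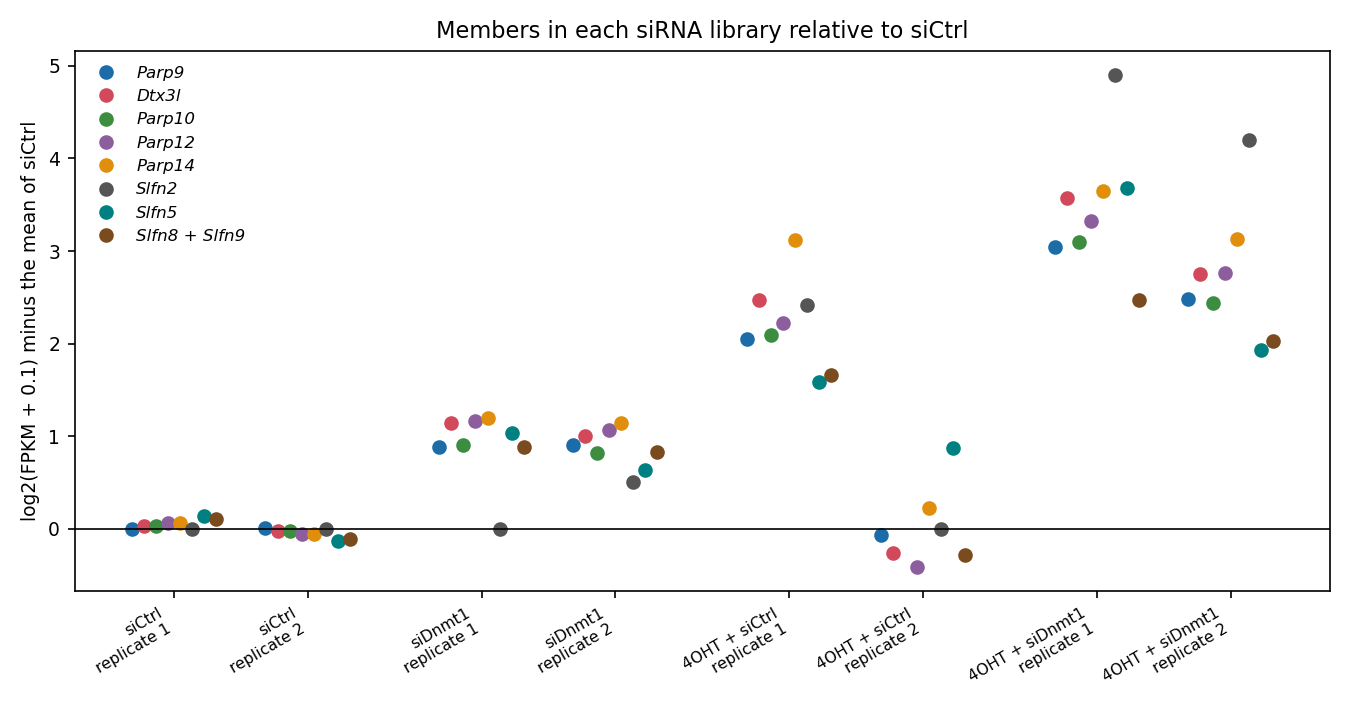
Log2(FPKM + 0.1) of each member minus its mean in siCtrl (vertical axis), for each of the 8 siRNA libraries (horizontal axis), 1 point per member. The members of 4OHT + siCtrl replicate 1 lie between 1.58 and 3.12, and those of replicate 2 lie around 0, with *Slfn5* as its highest; *Parp10* has no value in replicate 2.

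Where *Slfn8* and *Slfn9* had separate loci, their levels did not keep 1 ratio. In siDnmt1, *Slfn8* had 6.31 and 5.92 FPKM and *Slfn9* 40.2 and 39.0 FPKM, while 4OHT + siCtrl replicate 2 had 0.842 and 19.8 FPKM. In 4OHT + PD0325901, *Slfn8* had 4.70 and 8.90 FPKM and *Slfn9* 31.3 and 62.0, against 1.08 and 0.880 and 26.9 and 23.8 FPKM in untreated cells. The 1 PD0325901 library with separate loci, replicate 2, had 0.680 FPKM of *Slfn8* and 14.7 of *Slfn9*. In the fit by locus, added after the data were seen, 4OHT + PD0325901 was above PD0325901 by 3.08 for *Slfn8* and 1.58 for *Slfn9* on the log2 scale. Both values rest on this 1 PD0325901 library, so no test of them is given. With sequences this alike and 1 reported position per read, the split of fragments between *Slfn8* and *Slfn9* is uncertain.

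Over the 18 named libraries, each experiment centred on its own mean, the 5 Parp and Deltex members followed nearly the same pattern. Pearson's r of their log2(FPKM + 0.1) lay between 0.970 for *Parp12* with *Parp14* and 0.989 for *Dtx3l* with *Parp14*. *Slfn8* + *Slfn9* had r of 0.926 to 0.956 with these 5, and *Slfn5* had 0.517 to 0.638. Among 10247 other genes, the pattern most like that of *Parp9*, *Dtx3l* and *Parp14* was that of *Zbp1*, which encodes a sensor of Z-form nucleic acids (r = 0.988, 0.994 and 0.993). That most like *Parp12* was *Ogfr*, the opioid growth factor receptor gene (0.990), and that most like *Parp10*, over 17 libraries, was *Dtx3l* (0.987). *Slfn8* + *Slfn9* was most like *Dtx3l* (0.956) and then *Nampt*, which encodes an enzyme of NAD+ synthesis (0.955). *Slfn5* was most like *Irf2*, an IFN regulatory factor gene (0.945), followed by *Aftph* and *Cd274*, the gene of the checkpoint ligand PD-L1. These correlations describe libraries that share groups, depth and treatment, and carry no test.

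Genes around the members gave a measure of the rest of the pathway. Of 12 IFN signalling genes, 5 of 8 tested rose at 4OHT day 5, where 2.1% of all genes were called higher. The median log2 fold change of the 8 was 2.15, against 0.002 over all genes. Among the 5 were *Irf7* (4.96), *Isg15* (5.01) and *Usp18* (4.83). In long-term KO, 4 of 8 were called higher against untreated cells, beside 7.62% of all genes, among them *Irf7* (3.11) and *Usp18* (2.92). At 4OHT day 6, 6 of 11 rose, beside 4.96% of all genes. Among the 6 was *Ifnb1*, the gene of IFN beta (3.94, adjusted p = 0.000616 by limma), and the genes of the receptor chains and kinases did not reach the limit. With PD0325901, 2 of 11 rose, *Usp18* (2.21, adjusted p = 0.0333 by limma) and *Irf7* (1.58, adjusted p = 0.0420 by limma). There, 0 of 7 members and 7.19% of all genes were called in either direction. With TSA, 3 of 11 rose and 0 fell, where 19.1% of all genes were called higher and 12.9% lower. The 3 were *Usp18* (4.07), *Irf7* (2.43) and *Jak1* (1.20). Of the members, 4 of 7 fell.

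Of 12 other Parp genes, few passed the 2-fold limit with 4OHT, and *Zc3hav1*, which encodes the antiviral protein ZAP, was the most frequent among them. At day 5, 0 of 11 tested were called in either direction, though *Zc3hav1* rose from 17.2 to 17.5 FPKM in untreated cells to 29.4 to 31.3 FPKM below that limit (log2 fold change 0.81, adjusted p = 1.03e-06 by limma). In long-term KO, 0 of 11 were called. At 4OHT day 6, 2 of 12 were called higher beside 4.96% of all genes, *Zc3hav1* (1.40, adjusted p = 0.00305 by limma) and *Parp11* (1.37, adjusted p = 0.0497 by limma). *Zc3hav1* was also called in 4OHT + PD0325901 against PD0325901 (1.73), in 4OHT + siCtrl against siCtrl (1.24, with no value in replicate 2) and, with *Parp3* (1.12), in 4OHT + siDnmt1 against siDnmt1 (1.14). With TSA, 3 of 12 fell beside 12.9% of all genes, *Parp2* (-1.80), *Parp3* (-2.03) and *Parp8* (-1.14), and with PD0325901 *Tiparp* fell (-1.44). Of 6 other Schlafen genes, 1 or 2 reached the filter in an experiment. *Slfn3* was called higher with siDnmt1 (0.772 and 0.711 FPKM, at 0 in siCtrl), though it passed the filter on low values through libraries with 4OHT alone. In 4OHT + siDnmt1 against 4OHT + siCtrl, 1 of 2 was called higher, and whether the filter favoured this was not tested. The 1 tested in total RNA was called lower in long-term KO against 4OHT day 5 (-1.10), beside 5.95% of all genes. Of 4 other Deltex genes, 2 or 3 were tested and *Dtx4* was called higher with siDnmt1 (1.85) and lower in long-term KO (-1.01), and *Dtx3* lower with TSA (-1.18). Of 6 genes for removal of ADP-ribose, 3 to 5 were tested and 1 call was made over the 12 comparisons, *Macrod2* with TSA (2.49, adjusted p = 0.000551 by limma).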

How the data were processed

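RNA-seq of *Setdb1* cKO iMEFs was analysed in 27 libraries. Per the labels and the paper's methods, alignment by the authors was to mm9 with TopHat2 2.0.12, which reported 1 position for reads with several hits, and Cufflinks then gave FPKM (fragments per kilobase, scaled by depth) on RefSeq genes. FPKM with their intervals are the values deposited. Deposited tables of the authors' group comparisons hold fold changes and p-values and were not used. Total RNA files carry no gene names, so loci were matched by position to those of the named libraries (95% of a gene had to lie in the locus). In named libraries this gave the same name for 99.9% of loci or more. Since the loci were taken from these same libraries, that check does not cover the total RNA files. A locus that covers several genes gave no value to either. Counts were not at hand, and numbers of fragments were computed from the width of the deposited intervals, taken as counting error, with depth from genes of 1 exon and at least 1000 bp, so intervals and floors cover counting error alone.

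In R 4.3.3, limma 3.58.1 was fitted to log2(FPKM + 0.1) of each experiment, all groups in 1 fit, trended variances, two-sided, Benjamini-Hochberg over all genes tested. Tested genes reached 1 FPKM in 3 libraries (total RNA) or 2 (siRNA and inhibitors) with at most 1 library missing, and were called at adjusted p under 0.05 and at least 2-fold. In all, 12 comparisons and 2 interactions were made. Nothing says that replicates were separate cultures, so p-values measure the spread between these libraries. Exact permutation p-values cannot go below 0.1 with 3 against 3 libraries and 0.333 with 2 against 2, and none is given. On simulated data, 193, 158 and 160 of 200 changed genes were called in the total RNA, siRNA and inhibitor experiments (4OHT day 5, siDnmt1 and 4OHT day 6), and 2, 5 and 2 others. Members called with all libraries are named in each comparison, and the others are given by name, range or count. Other genes come from lists named in full or by count. The members and lists were chosen with earlier results of these data known. Alternatives were pseudocounts of 1 and 0.01, no filter and a filter of 5 FPKM, 2 scalings, the compared groups alone, a replicate block, a locus cover of 50%, no fold limit and leaving out each library; settings added after seeing the data are marked. Sequences were compared with Biopython and Python 3.11.15.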

Additional observations from a re-analysis of the deposited data

Results flagged for a closer look

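The effect of 4OHT against untreated cells differed between day 5 and long-term KO for all 6 members tested by the adjusted p of the difference itself, and for 2 of them by at least 2-fold. By that adjusted p alone, 6306 of all 9555 genes tested differed as well. *Parp14* was lower in long-term KO than at day 5 by a log2 difference of -1.73 (limma, adjusted p = 2.50e-07), lower in 3 of 3 libraries, and stayed above untreated cells at both times. *Slfn5* was lower by a log2 difference of -1.79 (limma, adjusted p = 9.51e-07), again in 3 of 3 libraries, and lay above untreated cells at day 5 and below them in long-term KO. The long-term cells also differed in culture time, which cannot be told apart from the time since deletion. No group holds 4 libraries or more, so no library was tested as an outlier.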

How the results depend on the processing

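Of 799 member values under other settings, 757 kept direction and side of the threshold, 20 lost the call, 16 gained one and 6 reversed; with 1 library left out, 425 of 509 kept both, 32 lost the call, 28 gained one and 24 reversed. Of counts of called members, 116 of 130 stayed within 1.5 times under other settings and 57 of 72 with 1 library left out. The causes of these shifts were not tested. Counts of called members for the siRNA experiment in this paragraph have *Slfn2* among the members tested, except with the filter of 5 FPKM. With a pseudocount of 1, the called members went from 3 to 0 in long-term KO against untreated cells, from 2 to 1 in long-term KO against 4OHT day 5, from 5 to 2 with TSA and from 0 to 1 in 4OHT + siDnmt1 against 4OHT + siCtrl. With no fold limit, 5 were called in long-term KO against untreated cells and 6 against 4OHT day 5, where 6432 and 6306 of all 9555 genes passed. A filter of 5 FPKM gave 1 in long-term KO against 4OHT day 5 and 1 in 4OHT + siDnmt1 against siDnmt1, and a pseudocount of 0.01 gave 1 in the latter. Fits of the compared groups alone gave 3 with siDnmt1, 0 with 4OHT + siCtrl, 7 in 4OHT + siDnmt1 against siDnmt1 (*Slfn2* is counted there, 2 members in all with every library) and 3 in 4OHT + PD0325901 against PD0325901. With 1 mismatch, 5 promoters held the response element in place of 3. Leaving out 1 library gave 0 to 3 called members with siDnmt1, 0 to 7 with 4OHT + siCtrl, 0 to 6 in 4OHT + siDnmt1 against 4OHT + siCtrl, 0 to 7 against siDnmt1, 1 to 3 with TSA and 0 to 6 for the interaction of 4OHT and siDnmt1.

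Reversed log2 values under scaling or pseudocount were those of *Slfn8* + *Slfn9* in 4OHT + PD0325901 against 4OHT (-0.0065 with median-ratio scaling) and, for the interaction of 4OHT and PD0325901, of *Parp12* (-0.029 with median-ratio scaling, -0.080 with quantile normalization) and *Slfn5* (-0.11 with a pseudocount of 1, -0.094 with median-ratio scaling, -0.37 with quantile normalization). With 1 library left out, signs changed for 4OHT + siCtrl against siCtrl in *Parp9* (-0.066 to 2.05), *Dtx3l* (-0.27 to 2.47), *Parp12* (-0.41 to 2.23) and *Slfn8* + *Slfn9* (-0.29 to 1.66). They changed in 4OHT + PD0325901 against 4OHT for *Parp9* (-0.0045 to 0.84), *Dtx3l* (-0.25 to 0.88), *Parp12* (-0.14 to 0.84), *Parp14* (-0.61 to 1.11) and *Slfn8* + *Slfn9* (-0.54 to 0.63). For the interaction of 4OHT and siDnmt1 they changed in *Parp9* (-0.18 to 1.93), *Dtx3l* (-0.37 to 2.36), *Parp10* (-0.52 to 0.14), *Parp12* (-0.30 to 2.34), *Parp14* (-0.90 to 2.00), *Slfn5* (-0.13 to 1.62) and *Slfn8* + *Slfn9* (-0.27 to 1.68), and for that of 4OHT and PD0325901 in *Parp12* (-0.40 to 0.59) and *Slfn5* (-0.35 to 0.38).

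Replicate numbers were not taken to pair the samples, since not every correlation of the deviations of same-numbered libraries was over 0.1 in any experiment: 6 of 20 were in the inhibitor, 0 of 12 in the siRNA and 1 of 9 in the total RNA experiment. The 6 are all those among PD0325901, 4OHT day 6 and 4OHT + PD0325901 (0.207 to 0.255), a hint from the data that the number may pair these 3 groups. A fit with the replicate number as a block left every count of called members within 1.5 times, and brought *Slfn5* in 4OHT + PD0325901 against PD0325901 (log2 fold change 1.34, adjusted p = 0.0459 by limma) and *Parp14* with TSA (-1.51, adjusted p = 0.0484 by limma) past the threshold. At the depth of the siRNA and inhibitor libraries, 3 fragments of *Slfn2* correspond to 0.118 to 0.170 FPKM, below which its level was not detectable.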
